A study of Homo sapiens with 12 samples.

Results

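The kinase module is the detachable part of Mediator, the complex that carries signals from transcription factors to RNA polymerase II. It was represented here by all 7 of its human genes: the kinases CDK8 and CDK19, their cyclin CCNC, and the paralog pairs MED12 with MED12L and MED13 with MED13L. They were chosen by name, as known subunits, and not by a cut on measured values, though earlier results of these data were known. The array held 24 probe sets that named a single one of these genes, out of 41091 such probe sets for 19775 genes. Each gene was read from its brightest probe set, by the mean over all arrays, and the remaining 17 probe sets are given beside it.

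An assembled module holds a single member of each paralog pair. The CDK with cyclin C is the only kinase of Mediator, MED12 activates it, and MED13 docks the module onto core Mediator. Docking hinders RNA polymerase II from binding the same Mediator complex. MED26, the subunit depleted in this study, is found mainly in Mediator that lacks the kinase module, where it brings in elongation factors.

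The cells were HEK293T, an established line from human embryonic kidney that expresses SV40 large T antigen. They were transfected for 48 hours with siRNA at 25 nM, either non-targeting or directed at MED26 (1 of s18074, s18075 and s18076). The 12 Affymetrix arrays fell into 4 groups of 3, and the control cells were transfected too. The titles call the controls wt, although the labels give each control array a different non-targeting siRNA number and the protocol only 1, so the controls may differ in it. Nothing in the labels says that replicates were separate cultures, so the p-values reflect array-to-array spread only, and this spread may be technical.

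Array medians lay between 72.3 and 73.8 intensity units, and the number of arrays limits the precision. The replicate 1 arrays stood apart from the rest: their deviations from the group means, over all genes, correlated with each other (0.326 to 0.439, 6 pairs). Same-numbered arrays gave -0.0240 to 0.248 for replicate 2 and 0.0344 to 0.169 for replicate 3. Deviations within a group cancel out. The negative values of replicate 1 against replicates 2 and 3 (-0.391 to -0.0539, 24 pairs) follow from this and are not separate evidence. Differences within replicate 1 and within replicates 2 and 3 are therefore given for the genes that changed. Among markers of HEK293 cells NEFL, NEFM, INA and PAX2 lay above the dimmest 40% of genes and SOX11 within it. The cut, on the mean over all arrays, was 6.57, and the control mean of PAX2 was 6.54. NEFL and NEFM fell (-0.80 and -1.09 in the mean of the 3 siRNAs). Markers of other cells were dim for 5 of 6 fibroblast, 3 of 4 carcinoma line and 3 of 4 blood cell genes. The exceptions were COL1A1, CDKN2A and HBB, with control means of 8.52, 12.42 and 7.16. LUM (-0.59) and COL3A1 (-0.51), which belong to the dim fibroblast genes, also fell. The list means ran from 8.78 to 8.84 in control and from 8.37 to 8.48 in siRNA arrays for the HEK293 markers, and from 6.18 to 6.26 and 5.96 to 6.11 for the fibroblast genes. Fewer cells of a type and less RNA per cell cannot be told apart in such samples, and the part of these shifts in the results below was not tested.

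Changes are differences of mean log2 intensity, siRNA minus control, given ± the standard error from limma. Calls used a threshold of 0.05 on p-values adjusted across every gene by the Benjamini-Hochberg method. The knockdown target came first: MED26 fell with each siRNA, at -1.10 ± 0.06 with s18074, -0.57 ± 0.06 with s18075 and -1.08 ± 0.06 with s18076, which left 46.6%, 67.5% and 47.3% of the control signal. With array values of 9.84, 9.87 and 9.84 in the controls and 9.41 at most with any siRNA, its groups did not overlap the controls. The other 2 MED26 probe sets were not called: 231724_at gave -0.27, 0.30 and -0.30 and 1559593_a_at gave 0.33, 0.13 and 0.18.

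Among the kinase module genes, read from their brightest probe sets, CDK19 and MED12 fell with each of the 3 siRNAs, and no other member was called against the controls. In the mean of the 3 siRNAs CDK19 fell by 0.43 ± 0.04 (limma, adjusted p = 3.57e-05) and MED12 by 0.33 ± 0.05 (adjusted p = 0.000279). Their paralogs CDK8 and MED12L were not called against the controls. MED13 depended on the probe set: its brightest was not called, and another rose with every siRNA. CDK19 differed most between siRNAs, with its steepest fall under s18075, the siRNA that left the most MED26 signal.

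In numbers, 2 of 7 members were lower in the mean of the 3 siRNAs, where 10.2% of all genes were lower, and 0 were higher, where 10.2% were higher. With s18074 alone 2 were lower (7.55% of all genes) and 0 higher (6.67%). With s18075 it was 2 lower (8.77%) and 0 higher (8.11%), and with s18076 it was 2 lower (8.62%) and 0 higher (10.3%). At an unadjusted p under 0.05 in limma 1 member was higher and 2 lower in the mean, 0 and 2 with s18074, 1 and 3 with s18075, and 0 and 3 with s18076. Shares of all genes at an unadjusted p were not counted, here or below, so these counts have no background beside them. All 9 siRNA arrays lay below all controls for 2 members (6.43% of all genes) and above all controls for 0 (6.78%). The median change of the 7 members in the mean of the siRNAs was -0.05, beside -0.0015 over all genes.

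**Figure D1:**
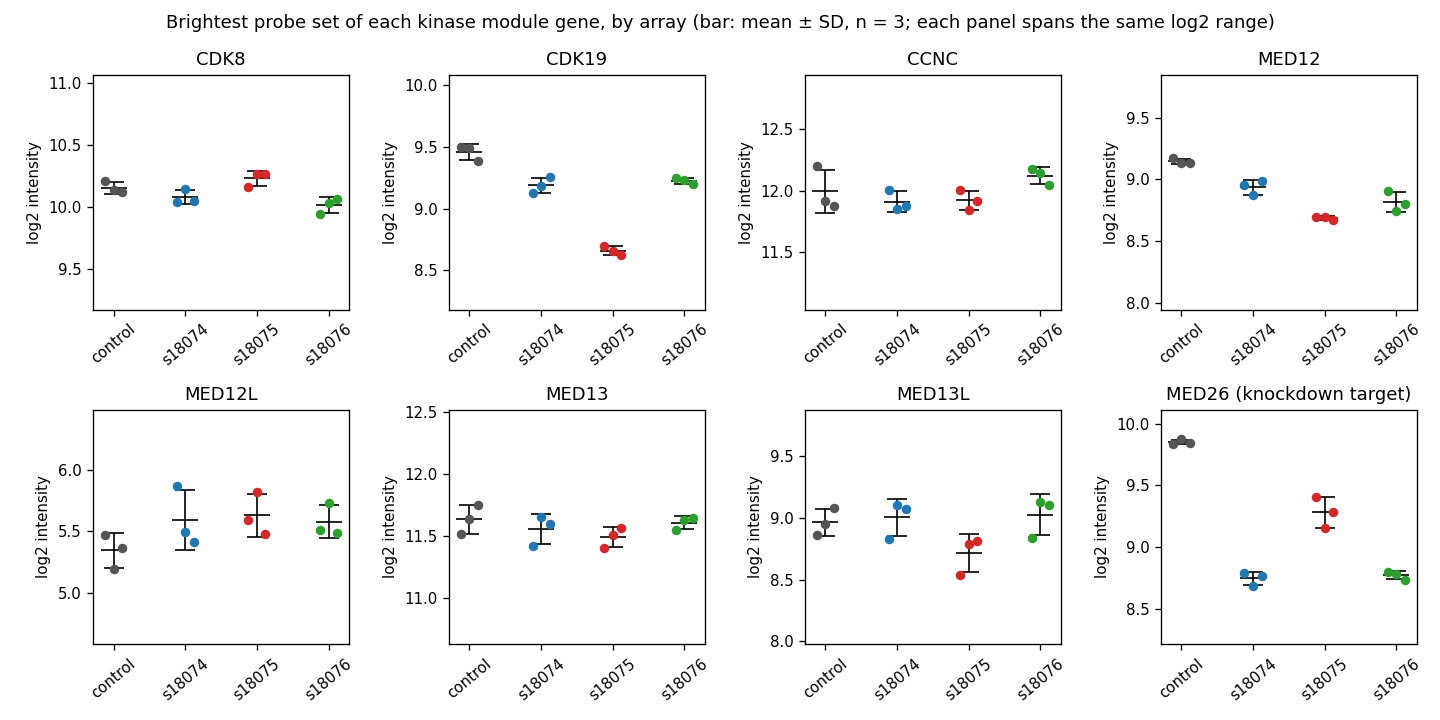
Log2 intensity (vertical axes, all spanning the same range) of the brightest probe set of the 7 kinase module genes and of MED26 in each of the 12 arrays, by group. Points are arrays, bars the mean ± SD (n = 3); for CDK19 and MED12 every siRNA array sits below the lowest control, and for CDK19 the s18075 arrays sit apart at 8.63 to 8.70.

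The promoters of the pair of genes that fell are shown to give the sequence context of the finding. They are the 250 bases before the RefSeq start (GRCh38.p14, 5′ to 3′ on the gene's strand), with every match to a searched motif in capitals. For CDK19, on the minus strand, the window is chr6:110815856-110816105 and lies before the most upstream of 3 listed starts. For MED12, on the plus strand, it is chrX:71118346-71118595.
CDK19: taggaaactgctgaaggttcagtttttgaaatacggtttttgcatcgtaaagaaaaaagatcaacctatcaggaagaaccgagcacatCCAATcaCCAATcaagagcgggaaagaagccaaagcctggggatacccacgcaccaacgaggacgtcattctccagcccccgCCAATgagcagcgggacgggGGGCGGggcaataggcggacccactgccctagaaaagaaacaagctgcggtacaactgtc
MED12: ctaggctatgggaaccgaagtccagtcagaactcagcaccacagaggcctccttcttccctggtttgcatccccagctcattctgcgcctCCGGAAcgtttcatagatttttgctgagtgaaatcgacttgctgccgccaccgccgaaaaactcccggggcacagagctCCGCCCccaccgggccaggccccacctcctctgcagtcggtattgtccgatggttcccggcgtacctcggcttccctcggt

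The 6 motifs, searched on both strands, were the CCAAT box (CCAAT), the GC box (GGGCGG), the E-box (CACGTG), the ETS core (CCGGAA), the TATA box (TATAAA) and an NRF1 half-site (GCGCATGC), none of which overlapped another in these windows. The CDK19 window held 3 CCAAT boxes and 1 GC box, and the MED12 window 1 ETS core and 1 GC box. Of all 35116 windows of this length, 32.0% held a CCAAT box, 42.6% a GC box and 14.5% an ETS core. The motif shared by both windows was thus a common one. E-boxes (6.34% of windows), TATA boxes (10.7%) and NRF1 half-sites (2.63%) were not in these windows. Of the 7 members 6 matched a promoter entry, with 9 windows in all. The single CDK8 window held 1 GC box and 1 E-box, and the 2 other CDK19 windows held 0 and 3 GC boxes, the latter with 1 NRF1 half-site. CCNC window 1 held 1 CCAAT box and its window 2 held 1 ETS core. The MED12L window held 1 CCAAT box, and that of MED13L 1 CCAAT box, 4 GC boxes and 1 E-box. The CCAAT box, GC box and ETS core thus also stood before members not called on their brightest probe set. These matches describe letters in the windows and are not binding sites.

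CDK19, the vertebrate paralog of CDK8, lies on chromosome 6 (110609978 to 110815855, GRCh38.p14). Its brightest probe set, 212899_at, read 9.50, 9.49 and 9.39 in the control arrays, 9.13, 9.18 and 9.25 with s18074, 8.70, 8.66 and 8.63 with s18075, and 9.24, 9.23 and 9.20 with s18076 (log2 intensity, replicates 1 to 3). No siRNA array overlapped the controls, and the s18075 arrays lay below all others. The fall was 0.27 ± 0.05 with s18074 (limma, adjusted p = 0.00579), 0.80 ± 0.05 with s18075 (adjusted p = 1.55e-06) and 0.23 ± 0.05 with s18076 (adjusted p = 0.00957). This left 82.9%, 57.5% and 85.0% of the control signal.

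The difference between siRNAs in CDK19 was itself tested. It passed limma's F test (adjusted p = 2.96e-05), with s18075 lower than s18074 by a log2 difference of -0.53 ± 0.05 (adjusted p = 8.38e-05). CDK19 was higher with s18076 than with s18075 by 0.56 ± 0.05 (adjusted p = 2.74e-05), whereas s18076 and s18074 differed by 0.04 ± 0.05 (adjusted p = 0.845). Within replicate 1 the differences from control were -0.37, -0.80 and -0.26 for s18074, s18075 and s18076, and within replicates 2 and 3 they were -0.22, -0.80 and -0.22. Fitted on replicates 2 and 3 alone, the smaller falls with s18074 (adjusted p = 0.0671) and s18076 (adjusted p = 0.0510) were not called.

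The other CDK19 probe sets gave the same order only in part. Probe set 212897_at read 7.72, 7.65 and 7.69 in the controls and 7.28, 6.98 and 7.11 with s18075, where it fell by 0.57 ± 0.09 (adjusted p = 0.00119 over all probe sets). With s18074 it gave -0.17 and with s18076 -0.18, neither called. Its fall in the mean, -0.31 ± 0.07 (adjusted p = 0.0120), was not called without control replicate 1 (adjusted p = 0.0513). Probe set 235226_at gave -0.22, -0.21 and 0.05 with s18074, s18075 and s18076, and the dim 211706_s_at gave 0.09, -0.01 and 0.02. Neither was called with any siRNA. In the mean of all 4 probe sets CDK19 was not called with s18074 (-0.14, adjusted p = 0.0620) or s18076 (-0.09, adjusted p = 0.253).

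CDK8, the kinase after which the module is named, lies on chromosome 13 (26254129 to 26405238). Its brightest probe set, 204831_at, read 10.21, 10.14 and 10.12 in the controls, 10.04, 10.15 and 10.05 with s18074, 10.16, 10.27 and 10.26 with s18075, and 9.94, 10.03 and 10.07 with s18076. The s18076 arrays lay below the controls and the other groups overlapped them. No contrast with the controls was called, and 95% intervals ran from -0.20 to 0.05 with s18074, from -0.05 to 0.20 with s18075 and from -0.27 to -0.01 with s18076. Between s18075 and s18076 CDK8 was lower under the latter, with a log2 difference of -0.22 ± 0.06 (limma, adjusted p = 0.0320), although the F test between the 3 siRNAs missed the threshold (adjusted p = 0.0613). Under s18075, where CDK19 kept 57.5% of its control signal, CDK8 stood at 105%. That difference between the paralogs was not tested.

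A further CDK8 probe set showed a replicate pattern in place of a siRNA pattern. Probe set 1553112_s_at read 7.86, 7.84, 7.92 and 7.56 in the replicate 1 arrays of the control, s18074, s18075 and s18076 groups, and between 6.46 and 7.35 in all replicate 2 and 3 arrays. Its control SD was 0.70 (n = 3), against 0.05 on the brightest CDK8 probe set. Probe set 1553113_s_at gave 0.03, 0.06 and -0.22 and was not called.

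CCNC encodes cyclin C, the regulatory partner that both kinases share, on chromosome 6 (99542387 to 99568814). Its brightest probe set, 201955_at, read 12.20, 11.92 and 11.88 in the controls, 12.01, 11.85 and 11.88 with s18074, 12.00, 11.85 and 11.91 with s18075, and 12.17, 12.15 and 12.05 with s18076. All siRNA groups overlapped the controls, whose replicate 1 array was the highest of the 12. The change in the mean was -0.01 ± 0.07 (adjusted p = 0.936), with a 95% interval from -0.16 to 0.14. The other CCNC probe set was dim and not called.

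**Figure D2:**
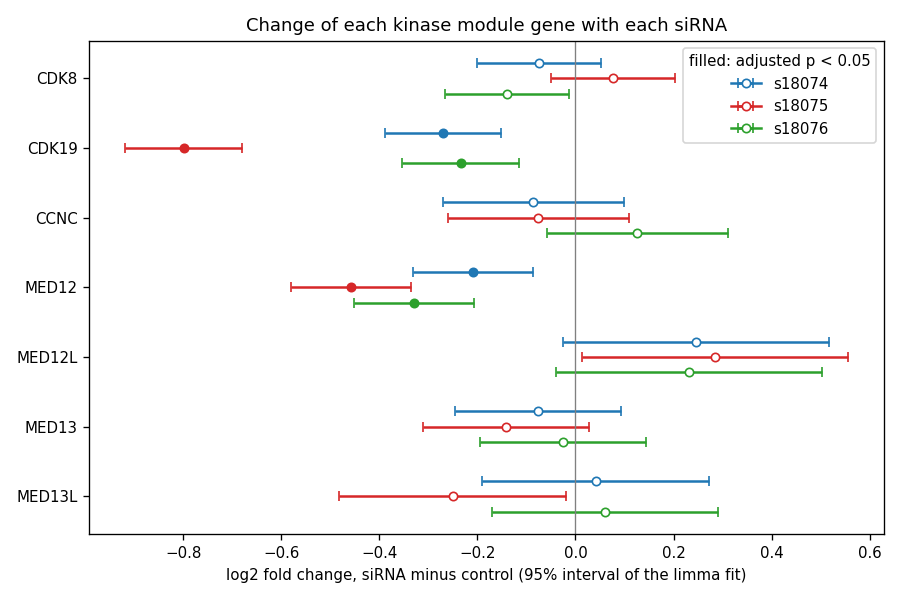
Log2 fold change of each kinase module gene with s18074, s18075 and s18076 (horizontal axis, siRNA minus control), with the 95% interval of the limma fit; filled points have an adjusted p under 0.05. CDK19 with s18075 lies farthest from 0 at -0.80, and MED12 is filled with all 3 siRNAs.

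MED12, which activates the cyclin C kinase, lies on the X chromosome (71118596 to 71142450). Its brightest probe set, 216071_x_at, read 9.17, 9.14 and 9.13 in the controls, 8.95, 8.87 and 8.99 with s18074, 8.70, 8.70 and 8.67 with s18075, and 8.90, 8.75 and 8.80 with s18076. All 9 siRNA arrays lay below the controls, and the s18075 arrays were the lowest. The fall was 0.21 ± 0.06 with s18074 (limma, adjusted p = 0.0257), 0.46 ± 0.06 with s18075 (adjusted p = 0.000144) and 0.33 ± 0.06 with s18076 (adjusted p = 0.00128), leaving 86.5%, 72.8% and 79.6% of the control signal. Within replicate 1 the differences were -0.22, -0.47 and -0.27, and within replicates 2 and 3 they were -0.20, -0.45 and -0.36.

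The fall of MED12 with s18074 was the weakest of these calls. It was lost without control replicate 1 (adjusted p = 0.0691), control replicate 2 (0.0609), s18074 replicate 1 (0.0538) or s18074 replicate 2 (0.112). With the MED12 probe sets averaged it was also lost (-0.15, adjusted p = 0.132). The same held with replicates 2 and 3 only (0.0806) and with s18074 and the controls fitted alone (0.0735). The siRNAs differed in the F test (adjusted p = 0.0286), with s18075 lower than s18074 by a log2 difference of -0.25 ± 0.06 (adjusted p = 0.0190). That F test was not passed without s18074 replicate 1 or 3, without any s18075 array or without s18076 replicate 3 (adjusted p from 0.0512 to 0.0973). Nor was the F test passed with probe sets averaged (adjusted p = 0.0817), with every probe set as a feature (0.0565) or with replicates 2 and 3 only (0.100).

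The other MED12 probe sets were also below the controls in the mean. Probe set 211342_x_at fell by 0.31 ± 0.05 in the mean of the 3 siRNAs (adjusted p = 0.00140 over all probe sets) and 203506_s_at by 0.29 ± 0.06 (adjusted p = 0.00892). On both, all 9 siRNA arrays lay below the controls. The dim 214275_at gave -0.18 ± 0.08 (adjusted p = 0.199), with 6 of 9 siRNA arrays below the controls. In the mean 203506_s_at was not called without control replicate 1 (adjusted p = 0.0537). With s18074, s18075 and s18076 in turn, 211342_x_at gave -0.19, -0.42 and -0.31. Likewise 203506_s_at gave -0.16, -0.36 and -0.35, and 214275_at gave -0.05, -0.24 and -0.25. None of them was called with s18074 (limma over all probe sets, adjusted p = 0.0719, 0.257 and 0.854). By Affymetrix convention a suffix _x marks probes that may match other transcripts and _s probes shared by several transcripts, so the 3 probe sets that fell may share targets.

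MED12L, the paralog of MED12, lies on chromosome 3 (151085664 to 151436653) and was read from probe sets in the range of the dimmest 40% of genes. The brighter, 1555300_a_at, read 5.47, 5.20 and 5.37 in the controls, 5.87, 5.49 and 5.41 with s18074, 5.59, 5.82 and 5.48 with s18075, and 5.51, 5.73 and 5.49 with s18076. Of the 9 siRNA arrays 8 lay above the controls. The mean difference of 0.25 ± 0.10 was not called (limma, adjusted p = 0.105, 95% interval 0.03 to 0.48), though it was with array weights (0.31, adjusted p = 0.0404). The other probe set gave -0.07, 0.22 and 0.20.

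MED13, which joins the module to core Mediator, lies on chromosome 17 (61942605 to 62065278). Its brightest probe set, 201987_at, read 11.51, 11.64 and 11.75 in the controls, 11.42, 11.65 and 11.60 with s18074, 11.40, 11.51 and 11.57 with s18075, and 11.55, 11.63 and 11.65 with s18076. These groups overlapped, and the mean difference was -0.08 ± 0.06 (adjusted p = 0.436, 95% interval -0.22 to 0.06). Probe set 201986_at gave 0.05, 0.02 and 0.21, also not called.

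The other 3 MED13 probe sets all gave positive differences, and 1 of them was called. That probe set, 223780_s_at, read 7.13, 7.10 and 6.90 in the controls, 7.74, 7.81 and 7.79 with s18074, 7.63, 7.58 and 7.65 with s18075, and 7.85, 7.96 and 7.84 with s18076. Every siRNA array lay above every control array. The rise was 0.74 ± 0.07 with s18074 (limma over all probe sets, adjusted p = 6.65e-05), 0.58 ± 0.07 with s18075 (adjusted p = 0.000205) and 0.84 ± 0.07 with s18076 (adjusted p = 1.42e-05). Within replicate 1 the differences were 0.61, 0.50 and 0.72, and within replicates 2 and 3 they were 0.80, 0.62 and 0.90.

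With all 4 probe sets averaged, MED13 was called higher in the mean of the siRNAs (0.23, adjusted p = 0.00970), so its call rests on which probe set is read. The fourth, 244611_at, was dim and gave 0.23, 0.11 and 0.21, not called. Which part of the MED13 transcript each probe set reads was not analysed here.

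MED13L, the paralog of MED13, lies on chromosome 12 (115958576 to 116277693). Its brightest probe set, 212209_at, read 8.86, 8.95 and 9.08 in the controls, 8.83, 9.11 and 9.08 with s18074, 8.54, 8.79 and 8.81 with s18075, and 8.83, 9.13 and 9.11 with s18076. The s18075 arrays lay below the controls and replicate 1 was the lowest array in every group. The s18075 difference was -0.25 ± 0.11 (adjusted p = 0.138, 95% interval -0.48 to -0.02), and with a block for replicate 1 against replicates 2 and 3 it was called at the same size (adjusted p = 0.00374). Without s18075 replicate 1 the difference was -0.16, and averaged over the MED13L probe sets it was -0.033. The next probe sets, 212208_at and 212207_at, gave -0.04 and -0.06 with s18075. The dim 242911_at rose in the mean by 0.28 ± 0.09 (adjusted p = 0.0492), with 8 of 9 siRNA arrays above the controls. Its adjusted p in limma was 0.05 or more under 12 of 20 alternatives, and the rise also missed the stricter threshold of 0.01. The dim 216109_at gave -0.01 in the mean.

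**Figure D3:**
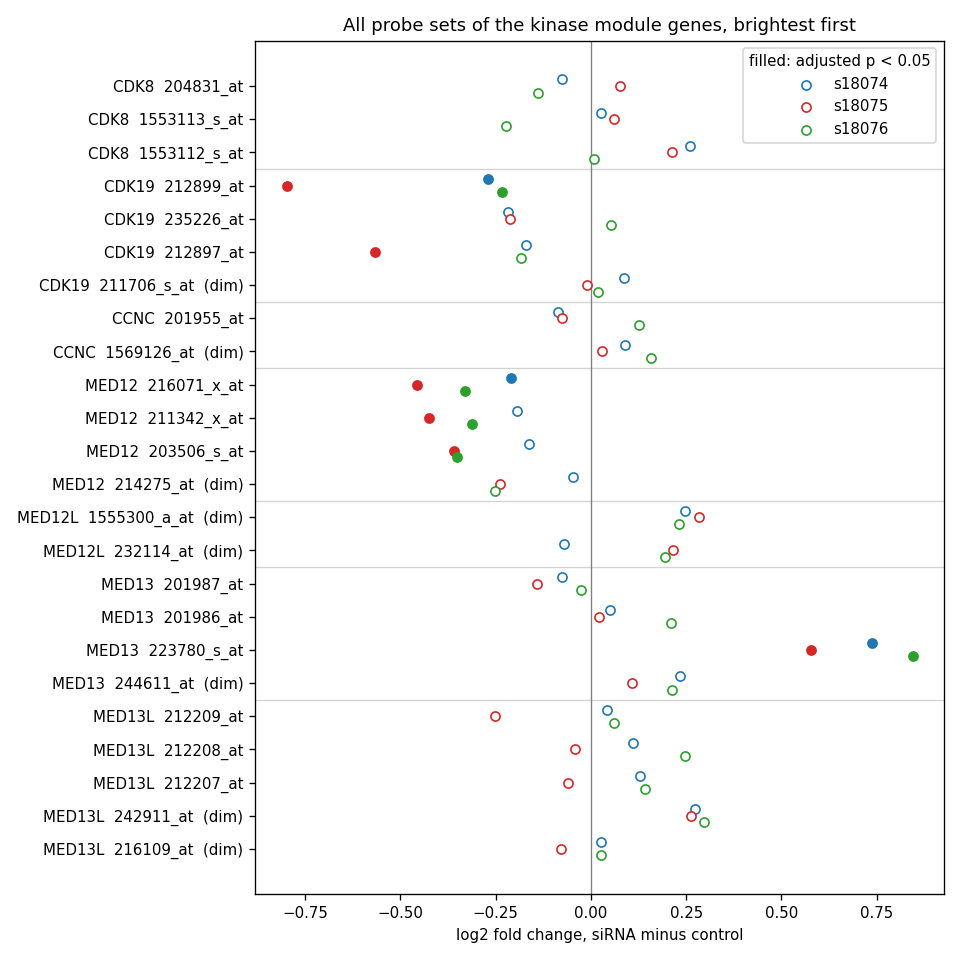
Log2 fold change (horizontal axis, siRNA minus control) of all 24 probe sets of the kinase module genes with each siRNA, grouped by gene with the brightest first; filled points have an adjusted p under 0.05 over all probe sets, and dim marks the range of the dimmest 40% of genes. The MED12 probe sets lie left of 0, whereas MED13 223780_s_at lies at 0.58 to 0.84, apart from the other MED13 probe sets.

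Over all 24 probe sets, 5 fell in the mean of the 3 siRNAs, where 7.44% of all probe sets fell, and 2 rose, where 7.99% rose. The 5 belonged to CDK19 and MED12 and the 2 to MED13 and MED13L. For 4 of the 24 all siRNA arrays lay below all controls (5.25% of all probe sets), and for 1 above (5.70%). The F test between siRNAs called 2 of the 24 (7.65% of all probe sets), both of CDK19. Without control replicate 1 only 4 of the 24 were called in the mean, 3 lower and 1 higher. The share of all probe sets called without that array was not counted.

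Between siRNAs, 2 of 7 members passed the F test on their brightest probe set, where 12.6% of all genes passed. Between s18075 and s18074 it was 2, CDK19 and MED12 (6.37% of all genes), between s18076 and s18075 it was 2, CDK19 and CDK8 (11.0%), and between s18076 and s18074 it was 0 (5.11%; 1 member at an unadjusted p under 0.05 in limma). With a block for replicate 1 against replicates 2 and 3, 5 members passed the F test, where 19.1% of all genes passed, with CDK8 (adjusted p = 0.0307), CCNC (0.0303) and MED13L (0.00163) added. The order of the siRNAs was not that of the MED26 knockdown. On the brightest probe sets MED26 kept most signal with s18075, where CDK19 and MED12 stood lowest. For MED12 this order depended on the probe set: 203506_s_at gave -0.36 with s18075 and -0.35 with s18076, and the dim 214275_at gave -0.24 and -0.25. With s18074 and s18076 MED26 kept 46.6% and 47.3%, and CDK19 82.9% and 85.0%.

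**Figure D4:**
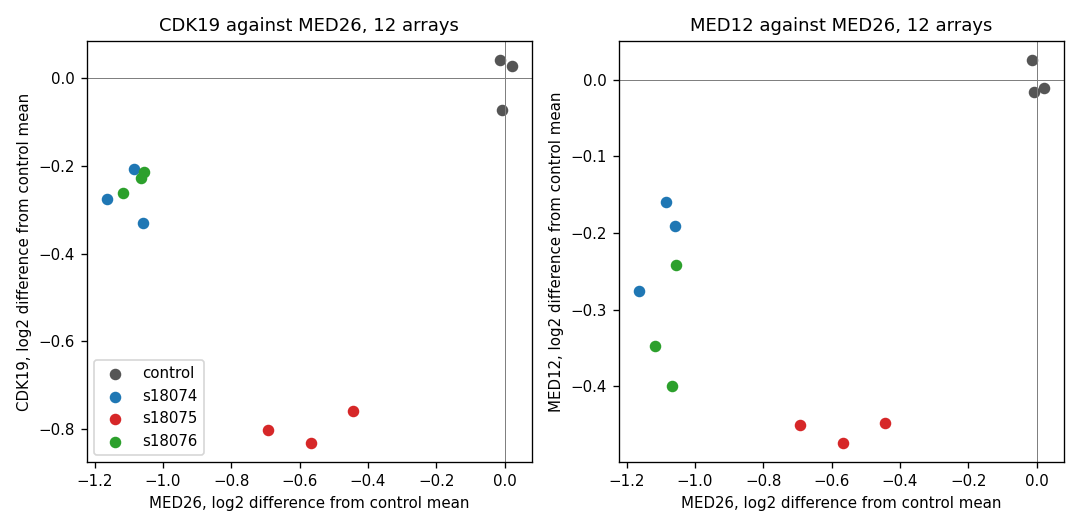
Log2 difference from the control mean of CDK19 (left) and MED12 (right, vertical axes) against that of MED26 (horizontal axes) in each of the 12 arrays, coloured by group. Each gene is read from its brightest probe set. There the s18075 arrays lie lowest for both genes, CDK19 near -0.80 and MED12 near -0.46, although their MED26 difference of about -0.57 is the smallest of the siRNA groups.

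The other Mediator subunits served as the surrounding complex. Of 23 measured apart from MED26, 5 rose, 2 fell and 16 were not called in the mean of the 3 siRNAs, with a median of 0.08. Over all genes 10.2% rose and 10.2% fell. Of 10 in the head, which contacts RNA polymerase II, 3 rose and 1 fell: MED28 rose by 0.54 ± 0.05, MED17 by 0.24 ± 0.05 and MED20 by 0.21 ± 0.05, and MED11 fell by 0.59 ± 0.05. MED20 was not called without control replicate 3 (adjusted p = 0.0539), and MED17, averaged over its probe sets, was at -0.013. Of 9 in the middle MED26 and MED10 fell, MED10 by 0.20 ± 0.05, a call lost without control replicate 1 (adjusted p = 0.0920) or 2 (0.109). Of 5 in the tail and scaffold MED15 rose by 0.37 ± 0.06 and MED16 by 0.34 ± 0.07. MED14, the scaffold that holds the modules together, gave -0.09 ± 0.04 in the mean and was not called, but with s18076 alone it fell, at -0.34 ± 0.05 (adjusted p = 0.000768).

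**Figure D5:**
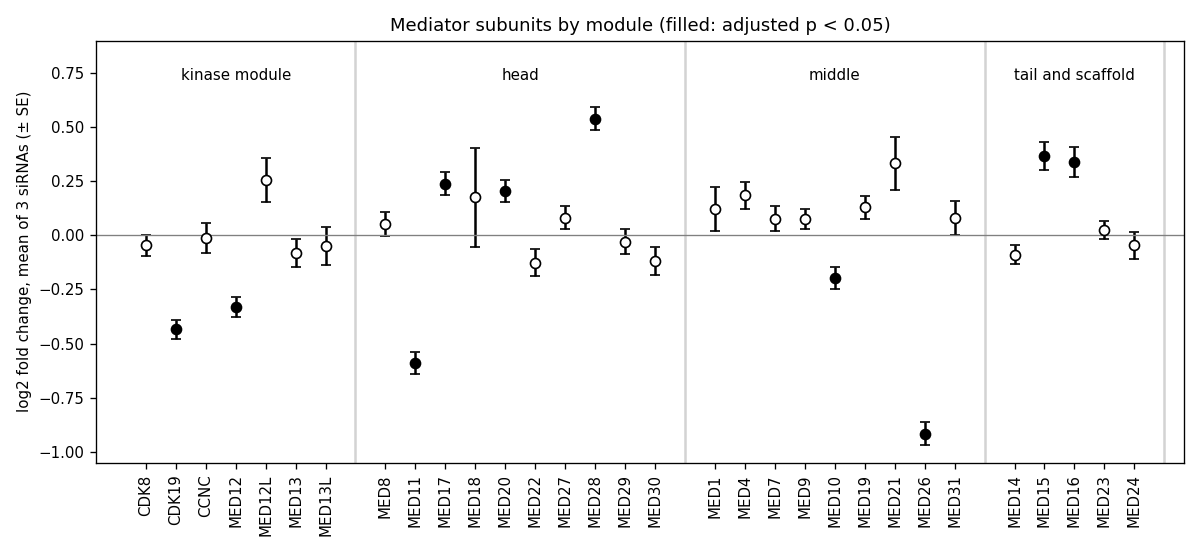
Log2 fold change in the mean of the 3 siRNAs (vertical axis, ± SE of the limma fit) of the measured Mediator subunits, grouped by module; filled points have an adjusted p under 0.05. In the kinase module the filled points, CDK19 and MED12, are both below 0, and the head holds filled points on both sides, from MED11 at -0.59 to MED28 at 0.54.

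Of 13 measured kinases and cyclins of transcription outside the module, 1 fell and 0 rose in the mean of the siRNAs. Over all genes 10.2% fell and 10.2% rose. CCNQ, the cyclin partner of CDK10, fell by 0.25 ± 0.04 (limma, adjusted p = 0.00146). CDK7 of TFIIH gave -0.17 ± 0.07 (adjusted p = 0.130) and CDK9 of P-TEFb 0.16 ± 0.19 (adjusted p = 0.619). With s18075 alone CCNH, the cyclin of CDK7, rose by 0.36 ± 0.09 (adjusted p = 0.0120). The F test between siRNAs was passed by 2 of the 13, CCNH and CCNL1, where 12.6% of all genes passed. Of 9 reported substrates and regulators of the module, STAT3 rose by 0.28 ± 0.05 in the mean and 8 were not called there. With single siRNAs CTNNB1, which encodes beta-catenin, fell under s18074 at -0.53 ± 0.08 (adjusted p = 0.000778), SMAD3 fell under s18075 at -0.31 ± 0.09 (adjusted p = 0.0265) and KDM1A rose under s18076 at 0.31 ± 0.07 (adjusted p = 0.00524). The F test between siRNAs was passed by 3 of the 9, CTNNB1, KDM1A and NOTCH1, where 12.6% of all genes passed. Averaged over its probe sets, STAT3 gave 0.12 (adjusted p = 0.216). FBXW7, the ubiquitin ligase subunit that targets MED13 for degradation, gave -0.08 ± 0.06 (adjusted p = 0.421).

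CDK8 is known as a coactivator of beta-catenin in Wnt signalling. Of 13 measured Wnt targets 3 fell and 1 rose in the mean of the siRNAs, where 10.2% of all genes fell and 10.2% rose, with a median of -0.04. MYC fell by 0.82 ± 0.11, LGR5 by 0.59 ± 0.06 and ZNRF3 by 0.22 ± 0.06, and AXIN2 rose by 0.20 ± 0.07. ZNRF3 was not called without control replicate 2 (adjusted p = 0.126) or 3 (0.0869). Of the single siRNAs only s18076 gave a call for ZNRF3 (-0.46), against -0.14 with s18074 and -0.07 with s18075. AXIN2 too was called with s18076 alone (0.35), against 0.08 with s18074 and 0.19 with s18075. Between siRNAs ZNRF3 passed the F test (adjusted p = 0.0103) and AXIN2 did not (0.116). The adjusted p of AXIN2 in limma was 0.05 or more under 13 of 23 alternatives. At 0.0486 in the main fit, AXIN2 also missed the stricter threshold of 0.01. LGR5, a dim gene here, took most of its fall from s18076, at -1.19, against -0.25 with s18074 and -0.33 with s18075. CCND1, also dim, was called with s18074 (-0.39) and s18075 (-0.34) and not in the mean.

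The genes whose pattern over the 12 arrays was most like each member's were named by Pearson's r over log2 values, among genes outside the dimmest 40%. These arrays share groups, controls and replicate numbers, so the values only describe likeness. For CDK19 they were CCNB1IP1 (r = 0.989), EYA1 (0.987) and PRDM4 (0.987), and each was lowest with s18075, with CCNB1IP1 at -0.51, -1.32 and -0.52. For MED12 they were CREB3L2 (0.970), DVL3 (0.962) and NUDT3 (0.960), with CREB3L2 at -0.21, -0.55 and -0.37. The nearest gene to CDK8 was ARV1 (0.919), to CCNC BCR (0.930), to MED12L OXER1 (0.919), to MED13 CNOT2 (0.965) and to MED13L ARHGEF26 (0.954). No member appeared among the 3 genes nearest to another member.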

How the data were processed

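RNA of the 12 samples was measured on Affymetrix arrays with 54675 probe sets. The authors deposited linear intensity values from RMA, with affy 1.24.2 named in the submitters' processing notes. RMA sets all arrays to a common distribution, which hides a global change in RNA. The design had assumed log2 values; intensities ran from 4.36 to 33219, so log2 was taken, with no pseudocount and no filter on dim probe sets. GEO's platform annotation gave 1 gene for 41091 probe sets, several for 1801 and none for 11721, beside 62 controls; RefSeq held the Entrez ID of 41037 and changed 0 symbols.

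Group means were fitted in limma 3.58.1 under R 4.3.3 with 8 residual degrees of freedom (lmFit, eBayes), over 19775 genes and separately over all single-gene probe sets, with Benjamini-Hochberg adjustment. The code was tested on simulated data. Contrasts were each siRNA, their mean, and the siRNAs among themselves (F test and pairs). The members and lists were chosen with earlier results of these data known. The text names all members, MED26, up to 4 called genes per list and the 3 genes nearest in pattern to a member; MED14, CDK7, CDK9, CCNH, CCNL1, FBXW7, CTNNB1, SMAD3, KDM1A, NOTCH1 and CCND1 were added after their values were seen. Alternatives covered scaling, dim genes (the dimmest 40%), probe set choice, the variance model, array weights, blocks, subsets of arrays and a threshold of 0.01.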

Additional observations from a re-analysis of the deposited data

Results flagged for a closer look

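CDK19 and MED12 are listed because their response differed between the siRNAs by limma's F test, at an adjusted p of 2.96e-05 for CDK19 and 0.0286 for MED12. On the brightest probe sets CDK19 stood at -0.27, -0.80 and -0.23 with s18074, s18075 and s18076, and MED12 at -0.21, -0.46 and -0.33. CDK19 passed this test under every alternative run and MED12 did not. Groups of 3 arrays are too small for the search for single outlying samples.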

How the results depend on the processing

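In the mean of the siRNAs CDK19 stayed called under all 23 alternatives run, from -0.47 to -0.21, and so did MED12, from -0.35 to -0.28. Members called with s18074, 2 as reported, were 1 when a gene's probe sets were averaged (MED13, higher), 0 with replicates 2 and 3 only (2 at an unadjusted p under 0.05 in limma), 1 with each siRNA and the controls alone, 1 at an adjusted p under 0.01, and 1 to 2 with any array left out. Members called with s18076, also 2, were 1 with replicates 2 and 3 only. Members called between siRNAs, 2 as reported, were 1 with probe sets averaged (8.97% of all genes called), 1 with every probe set as a feature (7.65% of probe sets), 4 with array weights (17.6% of genes), 5 with the block for replicate 1 (19.1%), 1 at an adjusted p under 0.01 (6.59%), and 1 to 2 with any array left out. Member probe sets called in the mean numbered 4 to 7 with any array left out. For this count and those with s18074 and s18076, the share of all probe sets or genes under each alternative was not counted. With probe sets averaged MED13 turned to 0.23 in the mean, 0.24 with s18074 and 0.31 with s18076, and MED17 to -0.013. Of 1172 fold changes of single genes or probe sets under the alternatives, 1092 kept direction and side of the threshold, 54 lost a call, 3 gained one and 23 changed sign. Of these 23, 19 were called neither as reported nor under the alternative. With probe sets averaged they were CDK8 (0.023 in the mean, 0.071 with s18074), CCNC (0.040 in the mean, 0.0017 with s18074), MED13 with s18075 (0.14) and MED13L (0.079 in the mean). With replicates 2 and 3 only they were CDK8 (0.010) and CCNC (0.050), and with array weights CCNC (0.014), all in the mean. With any array left out CCNC ran from -0.072 to 0.088 in the mean, -0.15 to 0.014 with s18074 and -0.14 to 0.024 with s18075, MED13L from -0.10 to 0.0081 in the mean and -0.011 to 0.13 with s18074, and MED13 from -0.085 to 0.031 with s18076. The directions of CDK8, CCNC, MED13 and MED13L in these contrasts are therefore not settled. Of 160 F test p-values, 138 kept their side of the threshold. The causes were not tested.

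The replicate block raised the members called between siRNAs to 5, where 17.1% of all genes were called (CDK8, adjusted p = 0.0480; CCNC, 0.0483; MED13L, 0.00359). Same-numbered arrays did not all deviate together: 5 of 12 correlated best with their own number, so the numbers were not taken as pairs. Fits of each siRNA with the controls alone give no mean or between-siRNA value, alternatives on probe set choice and dim genes give no probe set count, and MED12L is not in the fit without dim genes. Dim probe sets limit what could be seen of MED12L.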
